A study of Mus musculus with 14 samples.

Results

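The 7 genes described here are Papss1 and Papss2, which encode the enzymes that make PAPS, and the cytosolic sulfotransferase genes Sult1a1, Sult1b1, Sult1c2, Sult1d1 and Sult5a1. They were found by gene symbol, 1 row each, among the 17656 genes of every library. They were chosen with the differences between the study's groups in view, Papss1 by its low level in ConA-treated Ythdf1-/- livers and the others as genes of the same reaction, so their own differences are given as a description, without p-values. The study asked how loss of YTHDF1, a reader protein that binds m6A-modified RNA, changes the hepatitis that Concanavalin A (ConA) causes by activating T cells. Whole liver RNA was sequenced from 14 mice of 8 weeks on the C57BL/6 background, 1 library per mouse. The groups were WT mice given saline (n = 3), Ythdf1-/- mice given saline (n = 3), WT mice given 8 mg/kg ConA (n = 4) and Ythdf1-/- mice given 8 mg/kg ConA (n = 4), each by tail vein with the liver taken at 8 h. The knockout was made with CRISPR/Cas9 and was present in every cell, so hepatocytes and immune cells of a Ythdf1-/- liver both carried it, and saline-treated mice of both genotypes were the controls.

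Sulfonation adds a sulfonate group to hormones, bile acids, phenols, catecholamines and drugs, which makes most of them more soluble and easier to excrete. The donor of that group is PAPS, made from inorganic sulfate and ATP by the bifunctional PAPS synthases, and the cytosolic sulfotransferases pass it on to small molecules. Golgi sulfotransferases use the same donor, imported from the cytosol, for heparan and chondroitin sulfate, and sulfatases remove the group again. The liver is a main site of this phase II reaction, and Sult1a1, a phenol sulfotransferase, is one of its abundant enzymes.

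In the GRCm38.p6 build Papss1 lay on chr3:131564764-131643671 and Papss2 on chr19:32595669-32667187, both on the plus strand. Sult1b1 (chr5:87513327-87538195) and Sult1d1 (chr5:87554650-87569006) were neighbours on the minus strand, 16454 bases apart, with 0 annotated genes wholly between them. Sult1a1 (chr7:126672865-126690443), Sult1c2 (chr17:53829637-53845958) and Sult5a1 (chr8:123142843-123158914) were also on minus strands. RefSeq start site windows of the same build, each 300 bases, were found for all 7 members, 10 windows in all. The 250 bases before 4 start sites are shown because the first starts of the PAPS synthases held more CpG than the sulfotransferase starts, and because Papss1 and Papss2, which went apart after ConA in WT liver, were alike in it there. They are written 5′ to 3′ on the gene's strand, with every CpG in capitals.
Papss1, chr3:131564518-131564767, plus strand: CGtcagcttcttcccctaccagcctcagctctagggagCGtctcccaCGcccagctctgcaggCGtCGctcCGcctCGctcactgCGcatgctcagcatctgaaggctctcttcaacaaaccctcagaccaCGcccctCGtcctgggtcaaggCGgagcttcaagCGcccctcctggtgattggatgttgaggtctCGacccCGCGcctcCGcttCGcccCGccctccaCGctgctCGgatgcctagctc
Papss2, chr19:32595465-32595714, plus strand: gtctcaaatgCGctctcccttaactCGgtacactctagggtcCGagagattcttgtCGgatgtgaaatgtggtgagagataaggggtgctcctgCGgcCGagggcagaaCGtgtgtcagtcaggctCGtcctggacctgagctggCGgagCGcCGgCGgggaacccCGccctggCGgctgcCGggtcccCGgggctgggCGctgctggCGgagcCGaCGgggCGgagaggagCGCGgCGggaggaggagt
Sult1b1, chr5:87538196-87538445, minus strand: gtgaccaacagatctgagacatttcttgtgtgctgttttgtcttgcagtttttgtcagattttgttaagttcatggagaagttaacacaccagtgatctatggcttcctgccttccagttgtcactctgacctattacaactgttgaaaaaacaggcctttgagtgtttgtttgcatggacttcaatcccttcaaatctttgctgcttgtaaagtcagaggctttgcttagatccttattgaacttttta
Sult1c2, chr17:53845959-53846208, minus strand: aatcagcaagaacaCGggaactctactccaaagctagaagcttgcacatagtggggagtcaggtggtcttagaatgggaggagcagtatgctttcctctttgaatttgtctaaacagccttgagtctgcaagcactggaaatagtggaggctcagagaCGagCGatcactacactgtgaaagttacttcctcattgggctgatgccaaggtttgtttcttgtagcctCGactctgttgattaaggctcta
The stretch shown held 20 CpG for Papss1, 24 for Papss2, 0 for Sult1b1 and 4 for Sult1c2. Over the whole first window Papss1 and Papss2 each held 27 CpG with a GC content of 66.3%, while the first windows of the 5 sulfotransferases held 0 to 6 CpG with 37.0% to 54.7% GC. The second start windows of the synthases lay within that range, with 6 CpG and 47.3% GC for Papss1 and 1 CpG and 44.3% GC for Papss2. The 32851 RefSeq windows of all genes had a median of 7 CpG (quartiles 3 and 20) and of 52.7% GC. The nuclear receptor half-site AGGTCA, searched on both strands, was in 2 of the 10 member windows and in 16.3% of all windows. Its matches lay 123 bases before and 38 after the first Sult1b1 start and 197 bases before the second Papss2 start. The C/EBP motif TTNNGCAA was in 1 of the 10, Sult1c2, 35 bases after the start (10.8% of all windows), and the STAT motif TTCNNNGAA in 0 of the 10 (8.3% of all windows). These matches are letters in a window, not sites of binding.

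Values are TPM (transcripts per 1000000, a level per length), and each library listed 2230 to 2701 genes at 0. The depth behind the values is unknown, so the spread between mice is the measure of error. Hepatocyte markers (7 of 7 measured) summed to between 65163 and 124670 TPM in every library, so the labelled tissue was present. WT ConA replicate 3 and Ythdf1-/- ConA replicate 3 stood apart in scale, with median-ratio factors of -0.29 and -0.24 on the log2 scale against -0.08 to 0.21 in the other 12, and leaving either out changed no member call apart from that of Sult5a1 given with that gene. WT saline replicates 2 and 3 were far more alike than any other pair of one group. Their median absolute log2 ratio was 0.115 over the 100 genes most variable among the Ythdf1-/- saline livers. The other pairs outside that group had 0.244 to 0.932. Pairs of Ythdf1-/- saline livers had 1.19 to 1.81, values raised by the choice of genes. Member calls, and the counts over all genes in saline and in the interaction, are also given with this pair averaged to 1 sample. So is the count of pathway calls in saline. Other results count the pair as separate mice. Among these are the pathway, marker and regulator results with ConA in WT livers and the cell marker calls in saline. Ythdf1 itself was listed at 12.03 to 13.92 TPM in WT saline, 18.44 to 20.77 in Ythdf1-/- saline and, after ConA, 18.74 to 25.63 in WT and 15.54 to 26.17 in Ythdf1-/- livers. These whole-gene values do not check a deletion of part of the gene, so the genotype labels were not tested by them.

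Papss1 was the member whose level went up in WT livers and down in Ythdf1-/- livers. In saline it stood at 5.66, 4.94 and 5.92 TPM in the WT mice and at 3.36, 3.95 and 4.41 TPM in the Ythdf1-/- mice. After ConA it stood at 9.73, 9.45, 15.13 and 12.55 TPM in WT and at 1.83, 1.46, 1.45 and 1.55 TPM in Ythdf1-/- mice. No group overlapped another, and the order from low to high was Ythdf1-/- ConA, Ythdf1-/- saline, WT saline and WT ConA. The mean of WT ConA was 2.13 times that of WT saline, the mean of Ythdf1-/- ConA was 40.2% of that of Ythdf1-/- saline, and Ythdf1-/- ConA reached 13.4% of WT ConA.

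**Figure D1:**
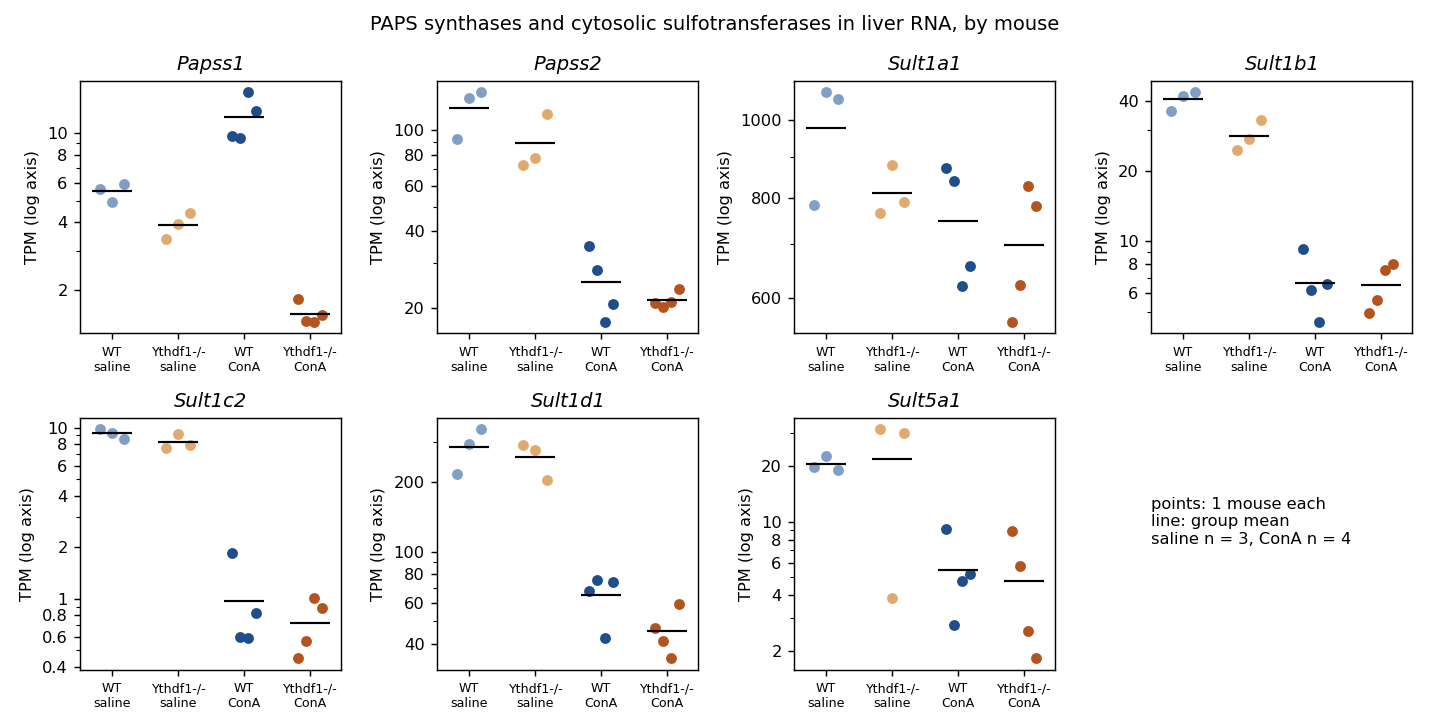
Level of each of the 7 members in every mouse, in TPM on a log axis, by genotype and treatment; each point is 1 mouse and each line a group mean (n = 3 for saline, n = 4 for ConA). Papss1 is highest in the 4 WT ConA mice (9.45 to 15.13 TPM) and lowest in the 4 Ythdf1-/- ConA mice (1.45 to 1.83 TPM), while Papss2, Sult1b1, Sult1c2 and Sult1d1 are low in all 8 ConA mice.

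On the log2(TPM + 1) scale the Papss1 difference of Ythdf1-/- ConA from WT ConA was -2.28 (SE 0.18, 95% interval -2.68 to -1.89). It ranked 4 from the lowest of 10519 genes tested, and Papss1 was the 1 member of 6 tested that was called lower, at a Benjamini-Hochberg adjusted p under 0.05 in limma, where 0.0856% of all genes were called lower and 0.342% higher. Those 36 higher and 9 lower calls ran from 4 to 44 higher and from 1 to 8 lower with a library left out. They were 4 and 1 without Ythdf1-/- ConA replicate 4 and 4 and 4 without WT ConA replicate 4. With all 14 libraries in the fit they were 416 and 224, with the replicate number as a block 116 and 24, and without the filter on low TPM 1 and 2. Since Papss1 was chosen on this contrast, its call there is no separate evidence. The rise in WT liver was 0.95 (SE 0.18) and the fall in Ythdf1-/- liver was -0.93 (SE 0.15). The difference between these changes, the interaction of genotype and ConA, was -1.87 (95% interval -2.36 to -1.39). Papss1 was the 1 member of 7 called in it, against 2.14% of 11327 genes called lower and 2.64% called higher. The background of this test rested on few libraries: its 299 higher and 242 lower calls became 19 and 9 with WT saline replicates 2 and 3 averaged, 18 and 9 without replicate 2, 15 and 7 without replicate 3, 22 and 11 without Ythdf1-/- saline replicate 1, 37 and 26 without replicate 2 of that group, 51 and 31 without Ythdf1-/- ConA replicate 4 and 111 and 75 without replicate 2 of that group. With some other libraries left out these calls grew. They were 482 higher and 287 lower without Ythdf1-/- ConA replicate 3 and 394 and 372 without WT ConA replicate 4. The comparisons of Papss1 named here share samples, so they are not separate measurements of it. All 4 calls named here held in each alternative processing tried, 14 for the genotype contrast after ConA, 14 and 12 for the ConA contrasts, and 20 for the interaction.

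In saline Papss1 was lower in Ythdf1-/- than in WT livers by less, with a log2 difference of -0.41 (SE 0.11, 95% interval -0.67 to -0.15). That call held in 3 of 12 alternatives. It was lost without WT saline replicate 1, 2 or 3, without Ythdf1-/- saline replicate 1 or 2, with WT saline replicates 2 and 3 averaged, with all 14 libraries in the fit, without the filter on low TPM and after rescaling. The difference ranged from -0.49 to -0.31 over all 12 alternatives.

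Papss2, the isoform that makes up most PAPS synthase RNA in liver, fell after ConA in both genotypes. It was measured at 92.39, 132.98 and 140.07 TPM in WT saline and 73.11, 77.84 and 115.69 TPM in Ythdf1-/- saline livers. After ConA it was at 35.00, 28.13, 17.73 and 20.77 TPM in WT and 21.04, 20.14, 21.20 and 23.83 TPM in Ythdf1-/- livers. All ConA mice lay below all saline mice, while the genotypes overlapped under both treatments. The log2 change was -2.24 (SE 0.24) in WT and -1.97 (SE 0.16) in Ythdf1-/- livers. Between the genotypes after ConA the difference was -0.18 with a 95% interval of -0.62 to 0.25, an interval that leaves out a difference of the size seen for Papss1.

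Because Papss1 and Papss2 went in opposite directions in WT liver, the share of Papss1 among the RNA of both PAPS synthases changed with treatment. Papss1 made up 4.47% ± 1.15 (SD, n = 3) of their summed TPM in WT saline and 4.30% ± 0.58 (n = 3) in Ythdf1-/- saline livers. In WT ConA livers it made up 32.7% ± 11.3 (n = 4), from 21.7% to 46.0% by mouse, and in Ythdf1-/- ConA livers 6.82% ± 0.83 (n = 4). The sum of both genes was 127.3 ± 25.7 TPM in WT saline, 92.8 ± 23.8 in Ythdf1-/- saline, 37.1 ± 5.50 in WT ConA and 23.1 ± 1.60 in Ythdf1-/- ConA livers. The total therefore ran lower in each ConA group than in each saline group, also in WT livers where Papss1 was higher.

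**Figure D2:**
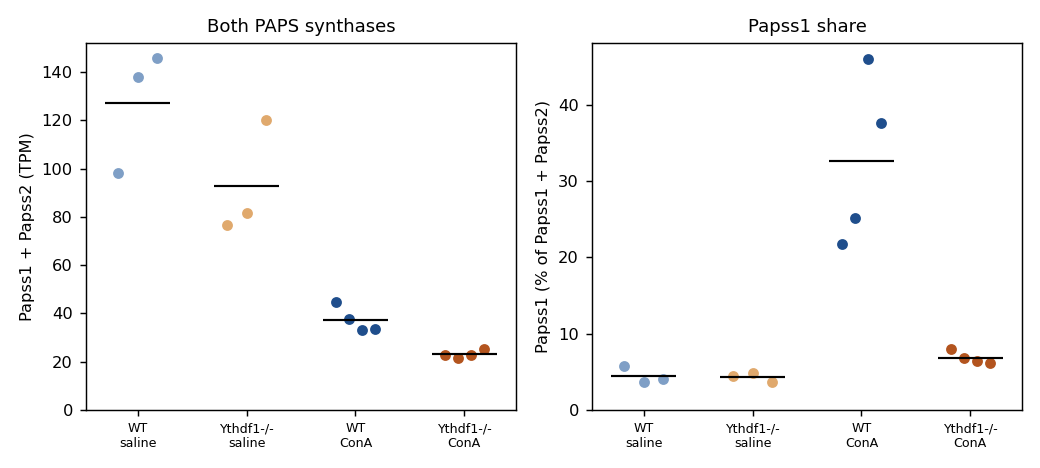
Left, summed TPM of Papss1 and Papss2 in each mouse; right, Papss1 as a percent of that sum; points are mice, lines group means, by genotype and treatment. The Papss1 share of the 4 WT ConA mice lies between 21.7% and 46.0%, above the 10 other mice, which lie between 3.58% and 8.00%.

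Among the sulfotransferases, Sult1b1, an enzyme of thyroid hormones and phenols, fell after ConA in each genotype. In saline it was at 36.19, 42.00 and 43.33 TPM in WT and at 24.62, 27.28 and 33.13 TPM in Ythdf1-/- livers. ConA livers had 9.27, 6.17, 4.54 and 6.57 TPM in WT and 4.96, 5.59, 7.51 and 7.97 TPM in Ythdf1-/- mice. The saline and ConA mice did not overlap, and the genotypes overlapped after ConA. The log2 change with ConA was -2.47 (SE 0.20) in WT and -1.98 (SE 0.18) in Ythdf1-/- livers.

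Its neighbour Sult1d1, a catecholamine sulfotransferase of rodents, was at 217.68, 292.89 and 340.06 TPM in WT saline and 290.37, 275.78 and 205.76 TPM in Ythdf1-/- saline livers. ConA livers had 67.79, 75.78, 42.49 and 73.89 TPM in WT and 46.79, 41.20, 34.54 and 59.59 TPM in Ythdf1-/- mice. All 8 ConA mice were below all 6 saline mice, with log2 changes of -2.12 (SE 0.23) and -2.48 (SE 0.19). After ConA the 3 highest WT mice were above all 4 Ythdf1-/- mice, and the log2 difference of -0.50 between genotypes (95% interval -0.97 to -0.02) was not called after adjustment over all genes.

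Sult1c2 had the lowest levels of the members after ConA. It was at 9.79, 9.31 and 8.63 TPM in WT saline and 7.64, 9.22 and 7.91 TPM in Ythdf1-/- saline livers. The ConA values were 1.85, 0.60, 0.59 and 0.83 TPM in WT and 0.45, 0.57, 1.01 and 0.88 TPM in Ythdf1-/- livers, again without overlap between treatments. The log2 change was -2.42 (SE 0.21) in WT and -2.43 (SE 0.17) in Ythdf1-/- livers, on a scale that understates the change of genes near 1 TPM. On the TPM scale the ConA mean was 10.5% of the saline mean in WT and 8.81% in Ythdf1-/- livers. Sult1c2 passed the filter on low values in these contrasts through its saline livers, and it was not tested between the genotypes after ConA because too few livers reached 1 TPM.

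Sult5a1, a less studied family member, was also lower after ConA, with a wide spread. WT saline livers had 19.83, 22.52 and 19.01 TPM and WT ConA livers 9.07, 2.74, 4.74 and 5.20 TPM, which did not overlap, for a log2 change of -1.82 (SE 0.29). Ythdf1-/- saline livers had 31.65, 3.86 and 30.23 TPM and Ythdf1-/- ConA livers 8.89, 5.73, 2.57 and 1.82 TPM. Ythdf1-/- saline replicate 2 thus lay among the ConA mice. The log2 change of -1.74 (SE 0.63) in Ythdf1-/- livers was called, and it lost its call without Ythdf1-/- saline replicate 1 (-1.28) or 3 (-1.31) and without Ythdf1-/- ConA replicate 3 (-1.57) or 4 (-1.46). Without Ythdf1-/- saline replicate 2 it was -2.65 and called. The call was also lost without the filter on low TPM, and it held in 8 of 13 alternatives.

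Sult1a1 was the member that was not called after ConA in either genotype. It was at 784.45, 1082.99 and 1064.35 TPM in WT saline and 764.97, 879.36 and 790.93 TPM in Ythdf1-/- saline livers. After ConA it was at 870.66, 840.72, 621.65 and 656.96 TPM in WT and 560.44, 622.29, 827.65 and 782.01 TPM in Ythdf1-/- livers. Treated and control mice overlapped in both genotypes. The log2 change was -0.39 (95% interval -0.78 to 0.01) in WT and -0.23 (95% interval -0.57 to 0.10) in Ythdf1-/- livers, intervals that allow a moderate fall and leave out one of the size seen for Sult1b1. Without WT saline replicate 1 the WT change was -0.54 and was called. The saline group then held only WT saline replicates 2 and 3, the pair far more alike than any other. Its spread is likely understated there, so nothing is read from that call. With the pair averaged the WT change was not called. With its relatives lower, Sult1a1 made up 73.4% ± 1.28 (SD, n = 3) of the summed TPM of the 5 sulfotransferases in WT saline and 90.6% ± 1.60 (n = 4) in WT ConA livers. Its share in Ythdf1-/- livers was 72.0% ± 3.16 (n = 3) in saline and 92.2% ± 1.91 (n = 4) after ConA.

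**Figure D3:**
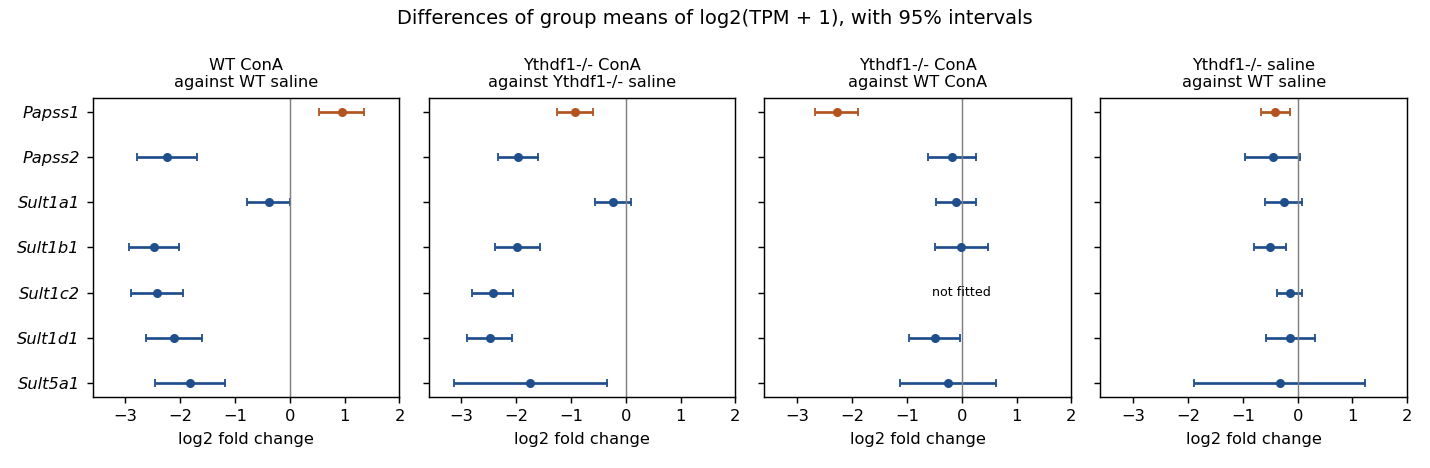
Differences of group means of log2(TPM + 1) for the 7 members in 4 comparisons, on the x axis as log2 fold changes, with 95% intervals from the limma fit; Papss1 is in orange. Papss1 lies above 0 with ConA in WT (0.95) and below 0 with ConA in Ythdf1-/- livers (-0.93), Sult1a1 stays near 0 in every panel (-0.39 to -0.10), and Sult1c2 was not fitted between genotypes after ConA.

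Counted over the members, 5 of 7 were called lower and 1 higher with ConA in WT livers, where 31.0% of all 10768 genes tested were called lower and 22.0% higher. In Ythdf1-/- livers 6 of 7 were called lower and 0 higher, where 30.7% of 10988 genes were called lower and 33.9% higher. The members were chosen with these contrasts in view, so nothing is read from the counts. With WT saline replicates 2 and 3 averaged, the same 6 members were called in WT livers in the same directions. In bulk liver, fewer cells of a type and less RNA per cell cannot be told apart. The hepatocyte markers summed to 107750 to 124670 TPM in WT saline, 98756 to 122620 in Ythdf1-/- saline and, after ConA, 66848 to 92262 in WT and 65163 to 77719 in Ythdf1-/- livers. Markers of neutrophils (7 genes) summed to 9.54 to 11.1 TPM in WT saline, 5.30 to 10.83 in Ythdf1-/- saline and, after ConA, 318 to 560 in WT and 413 to 953 in Ythdf1-/- livers, and 6 of the 7 were called higher with ConA in each genotype. Markers of Kupffer cells (5 genes) summed to 58.4 to 103.3 TPM in WT saline, 24.8 to 55.0 in Ythdf1-/- saline and, after ConA, 4.65 to 27.5 in WT and 4.69 to 19.2 in Ythdf1-/- livers. Between the genotypes after ConA 0 of the 7 hepatocyte and 0 of the 7 neutrophil markers were called in limma, with 2 and 4 at an unadjusted p under 0.05. Of 6 stellate cell markers 3 were tested in that contrast, with 0 called and 3 at an unadjusted p under 0.05. Over all 10519 genes 0.342% were called higher and 0.0856% lower, so 0 calls in such short lists do not show that cell content was alike. The share of all genes at an unadjusted p under 0.05 was not counted. The part of these cell markers in the member values was not tested.

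In saline, 2 of 7 members were called lower in Ythdf1-/- livers, Papss1 and Sult1b1 (log2 difference -0.51, SE 0.13), and 0 higher, against 12.9% of 10459 genes called lower and 6.30% higher. In the same contrast 3 of 6 pericentral hepatocyte markers were called lower, Cyp2e1 (-0.82), Slc1a2 (-0.86) and Axin2 (-0.60), and the list summed to 10332 to 13939 TPM in WT against 6368 to 8319 TPM in Ythdf1-/- livers. Of 6 stellate cell markers 2 were called higher, Lrat (0.89) and Des (1.15), with sums of 16.6 to 67.2 TPM in WT against 61.2 to 103.7 TPM in Ythdf1-/- livers. Their part in the member values was not tested. The 2 member calls became 0 with WT saline replicates 2 and 3 averaged. The Sult1b1 call held in 5 of 13 alternatives and was lost without WT saline replicate 2 or 3 and without Ythdf1-/- saline replicate 1 or 2. The deposited values carried a median log2 difference over all genes of -0.10 in this contrast, and rescaling the libraries to a median ratio of 1 removed it. The split of calls over all genes then turned from 659 higher and 1350 lower to 1024 higher and 634 lower, and 0 members were called. After ConA the same rescaling took the genotype calls over all genes from 36 higher and 9 lower to 17 higher and 12 lower. For the interaction the median over all genes was 0.14 before and -0.0017 after rescaling.

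How the members moved with each other was described over the 14 livers, which share treatment, genotype and library effects. Papss2 had a Pearson r of 0.99 with Sult1b1, 0.97 with Sult1c2, 0.95 with Sult1d1, 0.77 with Sult5a1 and 0.72 with Sult1a1 on log2(TPM + 1). Papss1 had an r of 0.00 to 0.13 with each of the other 6. Among 11327 genes, the pattern most like that of Papss1 over the 14 livers was that of Lsr, a lipoprotein receptor gene of hepatocytes (r = 0.90), followed by Pick1 (0.88), Entpd4b (0.85), Sharpin (0.85) and Rrp36 (0.83). Lsr had a median of 137.6 TPM in WT saline, 139.3 in Ythdf1-/- saline, 173.9 in WT ConA and 113.3 in Ythdf1-/- ConA livers, a smaller range than that of Papss1. For Papss2 the closest gene was Aldh5a1 (r = 0.99), and for Sult1c2 it was Slc2a2, the glucose transporter of hepatocytes (r = 0.99), whose median was 184.4 TPM in WT saline and 8.65 TPM in WT ConA livers. The closest genes were Ugt2b34, a glucuronosyltransferase, for Sult1b1 (r = 0.99), Ak3 for Sult1d1 (r = 0.99), Rgs3 for Sult5a1 (r = 0.95) and Aldh1l1 for Sult1a1 (r = 0.87). Next in order came Pdzk1 for Papss2, Klkb1 for Sult1c2, Galm for Sult1b1, Deptor for Sult1d1, Cyp2c40 for Sult5a1 and Akr1c20 for Sult1a1.

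The nearest genes on each side of Papss1 on chromosome 3 that were tested between the genotypes after ConA were taken by position, outside the rule for named genes. Untested genes that may lie nearer were passed over. The genes taken were compared between the genotypes after ConA. Sgms2 (log2 difference 0.39, SE 0.23), Hadh (-0.13, SE 0.17), Gimd1 (0.03, SE 0.30) and Aimp1 (-0.12, SE 0.12) were all not called in limma, with adjusted p-values of 0.447, 0.769, 0.97 and 0.659. Sgms2 lay 73321 and Hadh 292663 bases before Papss1, and Gimd1 986175 and Aimp1 1016827 bases after it. With ConA Hadh, an enzyme of fatty acid oxidation, fell in both genotypes (-1.88 in WT and -1.59 in Ythdf1-/- livers), and Aimp1 rose in both (0.49 and 0.43). Sgms2 was called lower in WT (-1.15) and had a change of -0.35 in Ythdf1-/- livers, and Gimd1 was called higher in Ythdf1-/- livers (0.76) and was not tested in WT.

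The rest of the sulfation pathway was taken from 5 lists of 86 symbols, of which 79 were in the files and 2, Impad1 and Sqrdl, are older names of the listed genes Bpnt2 and Sqor. With ConA in WT livers 21 of 45 tested genes were called lower and 2 higher, where 31.0% of all genes were called lower and 22.0% higher, and the median log2 change was -0.55 against -0.07 over all genes. In Ythdf1-/- livers 21 of 49 were called lower and 6 higher, where 30.7% of all genes were called lower and 33.9% higher, with a median of -0.46 against 0.07 over all genes. Of 45 genes tested in both contrasts, 18 were called lower in both. The WT pathway calls and their p-values count WT saline replicates 2 and 3 as separate mice. With that pair averaged, the calls over all genes in WT livers went from 2368 higher and 3336 lower to 1881 and 2739.

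**Figure D4:**
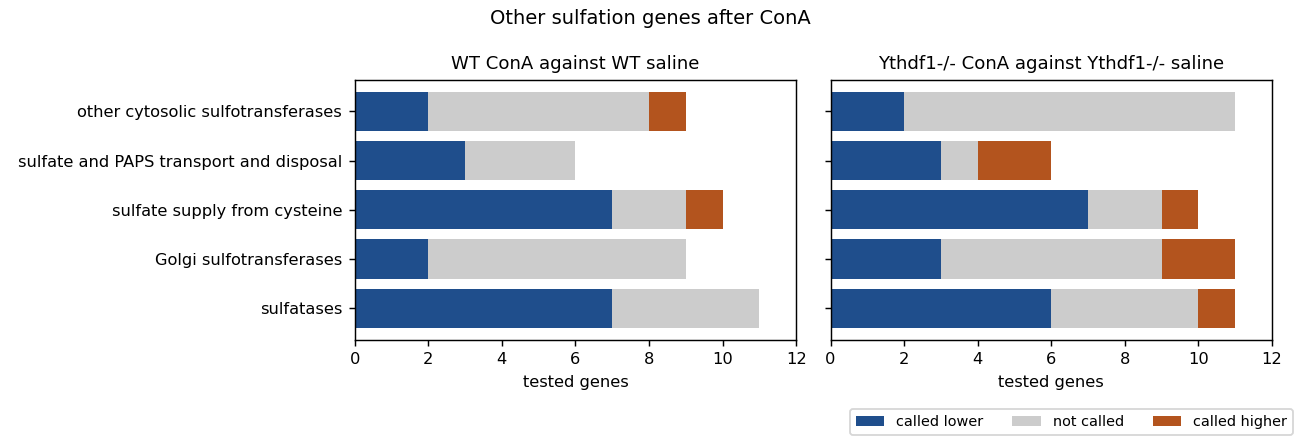
Number of tested genes of 5 sulfation lists that were called lower, not called or called higher with ConA, in WT livers on the left and Ythdf1-/- livers on the right (limma, adjusted p under 0.05). Sulfate supply from cysteine has 7 of 10 genes called lower and 1 higher in each genotype, and the sulfatases have 7 of 11 called lower in WT and 6 of 11 in Ythdf1-/- livers. Over all genes 31.0% were called lower and 22.0% higher in WT, and 30.7% and 33.9% in Ythdf1-/- livers.

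Sulfate for PAPS comes partly from the oxidation of cysteine. Of 10 genes listed for that supply, 7 were called lower and 1 higher in each genotype. Over all genes 31.0% were called lower and 22.0% higher in WT, and 30.7% and 33.9% in Ythdf1-/- livers. The higher call in WT was Cdo1, named outside the rule, at 1897 to 2075 TPM in saline and 2405 to 3108 TPM after ConA. Its log2 change was 0.47 (SE 0.14, limma adjusted p = 0.0172) in WT and 0.17 (SE 0.12), not called, in Ythdf1-/- livers. Cth, which makes cysteine from cystathionine, fell by 3.18 on the log2 scale in WT livers (SE 0.31, limma adjusted p = 3.70e-05), from 518.71, 823.97 and 820.13 TPM to 115.61, 101.74, 46.43 and 62.95 TPM. In Ythdf1-/- livers it fell from 555.15, 610.36 and 583.02 TPM to 46.81, 37.47, 60.65 and 55.50 TPM (log2 change -3.54, SE 0.16, limma adjusted p = 2.56e-08). Mpst, a sulfurtransferase that uses mercaptopyruvate, fell in WT (-1.40, SE 0.18, limma adjusted p = 0.000171) and in Ythdf1-/- livers (-2.05, SE 0.13, limma adjusted p = 2.76e-07). Got1, a transaminase that acts on cysteine sulfinate as well as aspartate, was called higher in Ythdf1-/- livers with ConA (0.33, SE 0.12, limma adjusted p = 0.035) and had a change of -0.52 (SE 0.27, limma adjusted p = 0.14) in WT livers.

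Of the genes that move sulfate and PAPS or dispose of the spent donor, 3 of 6 were called lower with ConA in each genotype, and 0 were called higher in WT and 2 in Ythdf1-/- livers. The shares of all genes were 31.0% lower and 22.0% higher in WT and 30.7% and 33.9% in Ythdf1-/- livers. Slc26a1, a sulfate transporter of the hepatocyte membrane, stood at 54.76, 57.75 and 59.85 TPM in WT saline and 12.84, 13.68, 10.18 and 7.33 TPM in WT ConA livers (log2 change -2.32, SE 0.20, limma adjusted p = 1.65e-05). The Ythdf1-/- livers had 45.84, 49.86 and 44.89 TPM in saline and 7.95, 6.77, 5.38 and 6.48 TPM after ConA (change of -2.65, SE 0.15, limma adjusted p = 1.13e-07). Slc35b2, which carries PAPS into the Golgi, fell in WT (log2 change -1.10, SE 0.14, limma adjusted p = 0.000154) and in Ythdf1-/- livers (-1.20, SE 0.16, limma adjusted p = 8.32e-05).

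Of the other cytosolic sulfotransferases 2 of 9 tested were called lower and 1 higher with ConA in WT, and 2 of 11 lower and 0 higher in Ythdf1-/- livers. These counts were not above the shares of all genes, 31.0% lower and 22.0% higher in WT and 30.7% and 33.9% in Ythdf1-/- livers. Sult2a8, a bile acid sulfotransferase of mouse liver, fell from 632.25, 506.96 and 549.56 TPM to 119.54, 119.36, 86.09 and 158.69 TPM in WT livers (log2 change -2.24, SE 0.19, limma adjusted p = 1.82e-05). In Ythdf1-/- livers it fell from 375.33, 263.46 and 344.59 TPM to 98.27, 81.22, 67.62 and 81.69 TPM (-1.98, SE 0.16, limma adjusted p = 1.48e-06). Sult2a7, of the same family, fell in WT (-1.65, SE 0.23, limma adjusted p = 0.000278) and in Ythdf1-/- livers (-2.19, SE 0.50, limma adjusted p = 0.00257).

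Of the Golgi sulfotransferases 2 of 9 tested were called lower and 0 higher in WT, and 3 of 11 lower and 2 higher in Ythdf1-/- livers. Over all genes 31.0% were called lower and 22.0% higher in WT, and 30.7% and 33.9% in Ythdf1-/- livers. The Golgi counts were thus not above these shares. Hs6st1, of heparan sulfate synthesis, was called lower in WT (-0.49, SE 0.17, limma adjusted p = 0.0367) and in Ythdf1-/- livers (-0.31, SE 0.12, limma adjusted p = 0.0449). Ndst1, which starts the sulfation of heparan chains, was called lower in WT livers (-0.64, SE 0.17, limma adjusted p = 0.0111), and its change in Ythdf1-/- livers was -0.07 (SE 0.18). Of the sulfatases 7 of 11 were called lower and 0 higher in WT, and 6 of 11 lower and 1 higher in Ythdf1-/- livers. Arsk, a lysosomal sulfatase, fell by 1.09 on the log2 scale in WT (SE 0.16, limma adjusted p = 0.000441), with a log2 change of -1.10 in Ythdf1-/- livers (SE 0.18, limma adjusted p = 0.000244). Arsb fell as well (-0.99 in WT and -0.53 in Ythdf1-/- livers), but 42.2% of its 50-base stretches occur in no other annotated gene, so its value is uncertain.

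Between the genotypes after ConA, 0 of 46 tested pathway genes were called in limma, and 14 had an unadjusted p under 0.05. Over all genes 0.342% were called higher and 0.0856% lower in this contrast, so 0 of 46 is near that share. The share of all genes at an unadjusted p under 0.05 was not counted. Of the 14 genes, 9 were among the 11 other cytosolic sulfotransferases tested. Several of the 9 are Sult2a genes, which share sequence, so they are not 9 separate observations. Sult2a4 was at 7.37, 3.09, 0.00 and 0.09 TPM in WT ConA and at 13.15, 12.84, 33.84 and 24.99 TPM in Ythdf1-/- ConA livers (log2 difference 3.05, SE 0.62, limma adjusted p = 0.0651). Sult2a6 was at 7.28, 1.82, 0.00 and 0.08 TPM in WT ConA and at 7.43, 12.10, 33.45 and 21.34 TPM in Ythdf1-/- ConA livers (2.93, SE 0.64, limma adjusted p = 0.0669). All 4 Ythdf1-/- livers were above all 4 WT livers for both genes. Here too both passed the filter on low values only through the Ythdf1-/- livers where they are high, so this order is no support of its own. The share of all genes without such overlap was not counted. In the other lists the differences with the lowest p were those of Slc26a1 (-0.63, limma adjusted p = 0.164), Slc35b2 (-0.23, limma adjusted p = 0.534), Got1 (0.87, limma adjusted p = 0.116) and Mpst (-0.50, limma adjusted p = 0.165). Among Golgi enzymes and sulfatases they were those of Chst15 (0.50, limma adjusted p = 0.385), Hs2st1 (0.27, limma adjusted p = 0.507), Arsa (-0.29, limma adjusted p = 0.344) and Sumf1, the enzyme that activates sulfatases (0.30, limma adjusted p = 0.631). The interaction called 0 of 50 pathway genes in limma, with 10 at an unadjusted p under 0.05, where 2.64% of all genes were called higher and 2.14% lower.

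In saline 5 of 49 pathway genes were called higher in Ythdf1-/- livers and 5 lower, and 4 of the 5 higher were Sult2a genes. Over all genes 6.30% were called higher and 12.9% lower in this contrast, a split that turned with rescaling. Sult2a4 was listed at 0.00, 0.00 and 0.36 TPM in WT and at 17.47, 59.44 and 24.02 TPM in Ythdf1-/- livers. Sult2a6 was listed at 0 in the 3 WT and at 19.91, 57.89 and 24.61 TPM in the Ythdf1-/- livers. Neither gene reached 1 TPM in a WT saline liver, so both passed the filter on low values only through the Ythdf1-/- livers where they are high, and their calls are no support of their own. Sult2a7 was at 8.34, 13.13 and 14.50 TPM in WT and 27.69, 88.90 and 82.29 TPM in Ythdf1-/- livers (limma adjusted p = 0.0209), and Sult2a8 went the other way, with a log2 difference of -0.79 (SE 0.15, limma adjusted p = 0.021). The 10 calls became 2 without WT saline replicate 2 or 3, 5 without Ythdf1-/- saline replicate 2 and 6 without replicate 1 of that group. Sult2a genes share sequence: 74.5% of the 50-base stretches of Sult2a4, 92.7% of Sult2a6 and 37.9% of Sult2a2 occur in no other annotated gene, so reads of this family may be split between its members.

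Several Sult2a and Sult3a genes are known to be higher in female than in male mouse liver, and their levels varied widely within groups. The genes named in what follows were picked after their values were seen. Sult2a1 was at 0.80 TPM in WT saline replicate 1 and at 306.31 and 320.11 TPM in replicates 2 and 3, and at 213.74 TPM in WT ConA replicate 1 against 2.74 to 12.82 TPM in the other 3. The summed level of 7 genes known as female-predominant ran from 609 to 1884 TPM in WT saline, 1209 to 1998 in Ythdf1-/- saline and, after ConA, 108 to 1207 in WT and 692 to 1015 in Ythdf1-/- livers. That of 7 male-predominant genes ran from 458 to 842 TPM in WT saline, 219 to 371 in Ythdf1-/- saline and, after ConA, 155 to 478 in WT and 79.2 to 112.2 in Ythdf1-/- livers. The labels give no sex, and the study's legends describe male mice. The Y-linked genes Ddx3y and Eif2s3y were at 0.02 TPM or less and 0.07 TPM or less in all 14 livers, and Uty was at 0.87 to 2.12 TPM. The male-predominant genes Mup20 and Slco1a1 were called lower in Ythdf1-/- than in WT livers after ConA, as Papss1 was, with log2 differences of -1.59 (SE 0.26) and -2.77 (SE 0.46), both at a limma adjusted p of 0.0369. They were 2 of 4 tested genes of that list, where 0.0856% of all genes were called lower. Slco1a1, at 1.28, 1.44, 0.15 and 0.10 TPM in Ythdf1-/- ConA livers, passed the filter on low values only through the WT livers where it is high, so its call is no support of its own. Lower calls over all genes ran from 1 to 8 with a library left out, and the hold of these 2 calls is not given here. The part of Mup20 and Slco1a1 in the Papss1 difference was not tested.

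Of 10 transcription factor genes listed as known regulators of sulfotransferase genes, 5 were called lower and 0 higher with ConA in WT livers, and 5 lower and 1 higher in Ythdf1-/- livers. Over all genes these shares were 31.0% lower and 22.0% higher in WT and 30.7% lower and 33.9% higher in Ythdf1-/- livers. The next genes are named after their values were seen. Nr1i3, the nuclear receptor CAR that switches on drug-metabolising genes, was at 195.99, 195.88 and 194.92 TPM in WT saline and 5.37, 5.02, 6.28 and 4.81 TPM in WT ConA livers (log2 change -4.95, SE 0.13, limma adjusted p = 3.38e-08). Ythdf1-/- mice had 116.45, 125.53 and 100.08 TPM in saline and 4.10, 3.25, 5.02 and 4.84 TPM after ConA (-4.45, SE 0.16, limma adjusted p = 5.90e-09). Nr1h4, the bile acid receptor FXR, fell in WT (-1.80, SE 0.28, limma adjusted p = 0.000595) and in Ythdf1-/- livers (-2.71, SE 0.19, limma adjusted p = 5.83e-07). Hnf4a, a master regulator of hepatocyte genes, had changes of 0.21 (SE 0.17) and 0.33 (SE 0.14), neither of them called. Rxra and Nr3c1 were not called in either genotype. The 1 gene called higher was Nfe2l2, in Ythdf1-/- livers (1.23, SE 0.14, limma adjusted p = 1.72e-05). Its change in WT livers was 0.45 (SE 0.27), not called. Between the genotypes after ConA 0 of the 10 were called in limma and 3 had an unadjusted p under 0.05. Over all genes 0.342% were called higher and 0.0856% lower there. The part of these genes in the member values was not tested.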

How the data were processed

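Liver RNA of 14 mice was read by the authors from 1 end, 50 bases per read, on the BGISEQ-500 platform. The study's methods name STAR and HTSeq, while the submitters' processing notes name Bowtie2, RSEM 1.3.1 and GRCm38.p6. Which of them made the deposited TPM values, and with which annotation, is not given in the sources used here. The authors deposited 1 table of TPM per mouse for 17656 genes, and TPM keeps no depth. Groups came from the labels. The labels describe the samples of a group as biological replicates.

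Differences were fitted with limma 3.58.1 (trend) in R 4.3.3 on log2(TPM + 1), after keeping genes that reached 1 TPM in a number of libraries no smaller than the smaller group's. Each comparison used its own groups, and the interaction all 14 libraries. Calls were made at a Benjamini-Hochberg adjusted p under 0.05 over all genes tested. The fit was tested on simulated data. The study's own methods name edgeR, which needs counts and was not run on TPM. Members, lists and tests were chosen with earlier results of these data known. Pathway genes were named by a rule, the 2 with the lowest p per list in the genotype contrast after ConA and in the ConA contrast of WT livers, with the genes most like each member over the 14 libraries, and exceptions are marked in the text. Promoter windows are RefSeq's for GRCm38.p6, and shared 50-base stretches were counted over GENCODE vM21 transcripts. Alternatives were a pseudocount of 0.1, a TPM filter of 5 or none, rescaling by median ratio, all libraries in each fit, a replicate block, WT saline replicates 2 and 3 averaged, and each library left out.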

Additional observations from a re-analysis of the deposited data

Results flagged for a closer look

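Papss1 was singled out because its ConA change differed between the genotypes in the interaction term (-1.87 on the log2 scale). All 4 WT ConA livers were above all 3 WT saline livers, and all 4 Ythdf1-/- ConA livers were below all 3 Ythdf1-/- saline livers. As Papss1 was chosen on these samples, the value is a description.

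In the groups of 4 mice, 48 groups of 24 genes were searched for a mouse far from the others, and chance alone gives about 1 in 20. For Ndst1 the lowest of the 4 Ythdf1-/- ConA livers was apart, with a gap of 0.848 of the range on log2(TPM + 1) (8.19 TPM in replicate 3 against 11.17 to 11.80). On the TPM scale itself the Ndst1 gap falls just short of the same limit. For Arsk the lowest of the 4 WT ConA livers was apart, with a gap of 0.929 of the range on the same scale (0.97 TPM in replicate 3 against 1.44 to 1.48). Replicate 3 of each ConA group had the lowest scale factor of its group, and its part in these values was not tested. No member had such a mouse in a group of 4, and groups of 3 were not searched.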

How the results depend on the processing

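No paired reading of the replicate numbers was taken, since same-numbered mice did not deviate together in every pair of any comparison (r of -0.0071, 0.13, 0.41 and 0.12 between the genotypes after ConA). With the replicate number as a block, 1 pathway gene was called between the genotypes after ConA, where none was without it, and Papss2 was called lower in saline. The same contrast gave 7 pathway calls with all 14 libraries in the fit and 0 to 4 with a library left out, the 4 without WT ConA replicate 1. In saline the 10 pathway calls between genotypes became 2 with WT saline replicates 2 and 3 averaged, 5 with all 14 libraries and 5 without the TPM filter. They ran from 2 to 13 with a library left out. The 2 member calls in saline became 0 with the pair averaged, with all 14 libraries, without the filter and after rescaling, 1 with the filter at 5 TPM, and 0 to 3 with a library left out. The interaction had 0 pathway calls, and 0 to 2 with a library left out. The Sult5a1 difference in saline was -0.33, not called, and turned to 0.58, called higher, without Ythdf1-/- saline replicate 2, in a range of -0.80 to 0.58 over the libraries left out. The cause of these changes was not tested. Over all alternatives, 121 recomputed counts stayed within 1.5 times their value and 27 did not. Among single genes 784 values kept their side of the threshold, 84 lost a call, 4 gained one and 1 turned. With the pair averaged, the saline contrast called 29 genes higher and 20 lower in all. Since TPM keeps no depth, the counting error of low genes such as Sult1c2 is unknown.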

Other observations

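Sgms1, a sphingomyelin synthase gene that lies 205784 bases before Papss2 on chromosome 19, was looked at by position among the tested genes. It was called higher in Ythdf1-/- than in WT livers after ConA, with a log2 difference of 1.59 (SE 0.24, limma adjusted p = 0.0369). It rose with ConA in both genotypes, by 0.67 (SE 0.22) in WT and 2.52 (SE 0.19) in Ythdf1-/- livers, and the interaction was 1.85 (SE 0.31, limma adjusted p = 0.0115). Minpp1 and Atad1, which lie nearer to Papss2 on either side, had genotype differences after ConA of 0.09 (SE 0.20) and 0.23 (SE 0.25), neither of them called.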
